A study of Mus musculus with 8 samples.

Results

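Zinc finger genes that carry the mouse gene name Zfp or Zbtb formed a broad family in STHdh striatal cells, and 168 probes for 130 gene symbols were studied here. They were chosen by 2 criteria, a symbol that starts with Zfp or Zbtb followed by a digit, and a deposited detection p-value under 0.01 on at least 4 of the 8 arrays. The array carried 333 such probes (229 symbols) among 25697 probes (18120 symbols). The members were therefore selected on measured detection, without regard to group, and how often a member was detected is a description here. The RNA came from conditionally immortalized wild-type STHdh cells, a line of striatal neuronal progenitors made from embryonic mouse striatum. In the Bcl11b group (n = 4 sets of cells) the cells were transfected with mouse Bcl11b (beta isoform) in the plasmid pcDNA3.1, and in the mock group (n = 4) with the empty plasmid, and both were harvested 2 days later. The labels call the mock samples wild-type as well, and nothing in them ties a replicate number to a shared day or batch, so the p-values measure the spread between these sets of cells of a single line. Each set was hybridized to an Illumina MouseRef-8 v2 array.

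The C2H2 zinc finger is a short fold held by a zinc ion, and proteins with several fingers in a row read stretches of DNA. Many of the Zfp genes of mammals carry a KRAB domain, which recruits the corepressor Trim28, the histone methyltransferase Setdb1 and the heterochromatin proteins of the Cbx family. The Zbtb proteins join C2H2 fingers to a BTB domain, through which they form dimers and bind corepressors such as Ncor1 and Bcor. A few Zfp genes encode CCCH fingers, which bind RNA, and Zfp36 (tristetraprolin) and Zfp36l1 bring messages with AU-rich elements to the deadenylases. Bcl11b (Ctip2) is itself a C2H2 factor, required for striatal projection neurons to mature, and acts largely as a repressor.

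All 130 symbols were found in the RefSeq annotation of GRCm38.p6, 107 under the name on the array and 23 under a newer name. By current name, 105 symbols (134 probes) were Zfp genes and 13 symbols (16 probes) were BTB zinc finger genes. The BTB group included Zfp238, now Zbtb18, Zfp297b, now Zbtb43, and Zbtb7, now Zbtb7a. The remaining 12 symbols (18 probes) no longer carry either name, and several of them are no DNA-binding zinc finger factors. Among these were Zfp162, now the branch point binding splicing factor Sf1, Zfp313, now the ubiquitin ligase Rnf114, and Zfp289, now the ARF GTPase-activating protein Arfgap2. The label of zinc finger transcription factors therefore did not describe every member.

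For the members with the changes described below, the 250 bases before the annotated start (RefSeq, GRCm38.p6) are shown for 2 genes that were lower and 2 that were higher in Bcl11b-transfected cells. Capitals mark matches on either strand to the motifs that the study drew from Bcl11b-bound regions. Those searched were ACCACA, then the motif TGCTTG, then the motif AGTGCT, then the motif AGAGTG with its variant form AGTGTG, and then the motif GGATCA. The study drew the first 3 from bound regions whatever their location, and the last 2 from those in 5′ regions. It placed most bound regions well away from proximal promoters. Each window is written 5′ to 3′ along its gene. Zfp297b (Zbtb43, minus strand, chr2:33468533-33468782) held 3 matches, Zfp94 (minus strand, chr7:24316667-24316916) held 1, Zfp213 (minus strand, chr17:23564227-23564476) held 1 and Zbtb2 (minus strand, chr10:4388109-4388358) held 0.
Zfp297b: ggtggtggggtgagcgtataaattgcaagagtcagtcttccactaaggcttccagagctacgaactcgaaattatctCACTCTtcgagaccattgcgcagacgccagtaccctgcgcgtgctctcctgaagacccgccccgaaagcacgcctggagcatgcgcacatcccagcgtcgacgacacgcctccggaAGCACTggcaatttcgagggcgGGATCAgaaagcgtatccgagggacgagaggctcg
Zfp94: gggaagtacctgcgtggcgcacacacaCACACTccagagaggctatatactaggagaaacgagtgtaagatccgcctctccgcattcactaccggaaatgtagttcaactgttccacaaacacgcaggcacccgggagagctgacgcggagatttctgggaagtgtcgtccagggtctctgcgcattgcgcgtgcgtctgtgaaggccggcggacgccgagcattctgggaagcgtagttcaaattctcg
Zfp213: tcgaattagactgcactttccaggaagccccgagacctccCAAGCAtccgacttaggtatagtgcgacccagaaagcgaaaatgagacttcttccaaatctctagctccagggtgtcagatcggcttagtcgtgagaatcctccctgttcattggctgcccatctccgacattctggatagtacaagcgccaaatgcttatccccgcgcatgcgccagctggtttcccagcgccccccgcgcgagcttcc
Zbtb2: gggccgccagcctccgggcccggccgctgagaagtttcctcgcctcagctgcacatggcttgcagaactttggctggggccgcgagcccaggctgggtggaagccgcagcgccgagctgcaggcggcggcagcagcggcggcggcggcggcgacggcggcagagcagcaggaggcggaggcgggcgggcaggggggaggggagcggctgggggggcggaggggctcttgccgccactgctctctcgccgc
Across the family, 146 promoter windows of 108 members were in the table. Of these, 19.9% held AGAGTG or its variant against 25.04% of all 32851 windows, 13.7% held AGTGCT against 12.6%, and 13.0% held ACCACA against 14.05%. For TGCTTG the shares were 7.53% and 13.7%, and for GGATCA 6.85% and 7.6%. The member windows were richer in GC, with a median of 57.2% against 52.4%, and held a median of 14 CG dinucleotides against 6. These matches describe the letters only. For 2 other lower genes whose sequence is not printed, Zfp629 and Zbtb7 (Zbtb7a), every window held 0 matches. No window is shown for Zfp647 or Zfp41.

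Detection of the family was similar in both groups, with 160 to 174 Zfp and Zbtb probes detected on a mock array and 161 to 172 on a Bcl11b array. Of the 168 members, 151 (120 symbols) were detected on all 8 arrays and 17 on 4 to 7, and none was undetected on a whole group. Just inside the limit, on exactly 4 arrays, lay Zbtb3, Zfp212, Zfp316, Zfp606 and Zfp98, and just outside it, on 3, lay Zfp296 (mean log2 signal 6.35 in mock and 5.13 in Bcl11b), Zfp469 (5.36 and 6.53) and Zfp560 (6.30 and 6.15). A further 147 Zfp or Zbtb probes were detected on no array. The deposited signals were brighter on the mock arrays (median 31.6 to 53.9) than on the Bcl11b arrays (20.1 to 30.2), and 30.6% to 31.6% of signals per array were at or below 0. They were quantile-normalized, set to at least 1 and given as log2. Their precision is limited by how many arrays there were. The Bcl11b probe passed the detection limit on no mock or Bcl11b array, so it gave no check of the transfection. Of the markers that define striatal projection neurons, 0 of the 8 on the array were detected on at least 4 arrays, and likewise 0 of 3 pan-neuronal, 0 of 3 glial and 0 of 4 endothelial or blood markers. None of the 8 striatal markers was detected on any array. Of the progenitor markers 3 of 4 were detected (Nes, Sox2 and Vim, with Pax6 on no array), and of the mesenchymal markers 3 of 5 (Col1a1, Col3a1 and Acta2, with Col1a2 and Thy1 on no array).

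The comparison of Bcl11b-transfected with mock-transfected cells asks which of these factors changed with Bcl11b. More members were lower than higher in Bcl11b-transfected cells. At the adjusted threshold of 0.10 (limma over all 25697 probes), 3 members (1.79%) were lower, Zfp629, Zfp297b and Zfp647, and 0 were higher. Of all probes 0.627% were lower and 0.354% higher, and of the 10622 probes with the same detection limit 1.23% and 0.424%. Among members detected on every array, 2 (1.32%) were lower and 0 higher, beside 1.27% and 0.299% of all probes so detected. Member shares at this threshold lay near those of equally detected probes. At an unadjusted p-value under 0.05, 27 members (16.1%) were lower and 5 (2.98%) higher, against 6.79% and 3.6% of all probes and 12.6% and 5.06% at the same detection limit. Under the second rule of the methods, an unadjusted p under 0.05 together with a minimum log2 change of 0.32, 22 member probes (13.1%, 21 symbols) were lower and 5 (2.98%) were higher. The shares among all probes were 5.81% lower and 3.2% higher, and among probes with the same detection limit 10.3% and 4.13%, so both member shares lay near that background. Over the 151 members detected on every array, 17 (11.3%) were lower and 5 (3.31%) higher, beside 10.5% and 3.8% of all probes so detected. The 4 Bcl11b values lay below all 4 mock values for 17 members (10.1%) and above them for 3 (1.79%), against 3.78% and 2.05% of all probes and 7.12% and 2.81% at the same detection limit. The median log2 fold change of the members was -0.074, with 104 of 168 (61.9%) below 0, and that of all probes at the same detection limit was -0.014, with 51.6% below 0.

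**Figure D1:**
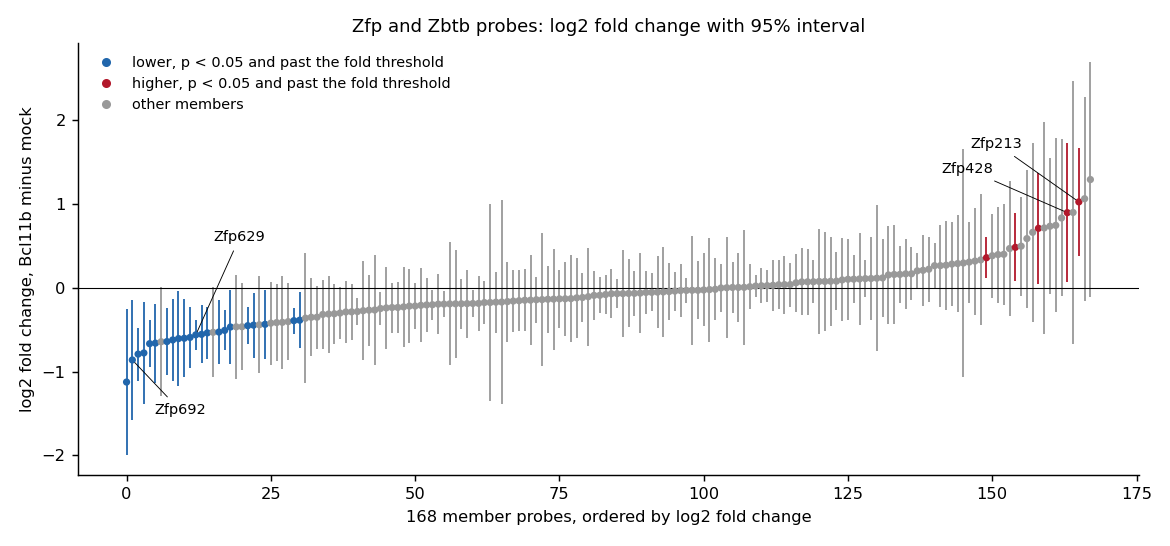
Log2 fold change (Bcl11b minus mock, y axis) of the 168 member probes, ordered along the x axis, each with its 95% interval from limma; colour marks probes with p under 0.05 and a log2 change of at least 0.32. The 22 blue probes lie at the lower end and the 5 red ones at the upper end, and most grey intervals include 0.

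The counts depended on the processing and on single arrays. The share of all probes called was not counted in these other fits. The counts below therefore do not tell whether members moved more than other probes. The number lower at the adjusted threshold was 0 without normalization between arrays, after division by the array median and under limma-trend, 1 with an offset of 16, 6 with neqc and 7 with arrayWeights. The number lower at the adjusted threshold was 8 without mock replicate 2, 1 without mock replicate 4, Bcl11b replicate 3 or Bcl11b replicate 4, and 0 without mock replicate 3, Bcl11b replicate 1 or Bcl11b replicate 2. After division by the array median 20 members were lower and 9 higher by p and fold. The number lower by p and fold was 14 without mock replicate 4 and 13 without Bcl11b replicate 3. The number higher was 10 without mock replicate 2, 8 without Bcl11b replicate 4, 2 without mock replicate 3, and 3 without Bcl11b replicate 1 or replicate 3. The members' median was -0.030 without Bcl11b replicate 3, -0.032 without mock replicate 4, -0.11 without mock replicate 2, -0.13 without mock replicate 1 and -0.14 without Bcl11b replicate 4. Of the 22 lower probes, 12 kept p under 0.05 in the same direction whichever array was left out, and of the 5 higher probes 2 did, Zfp213 and Zbtb2. Without normalization, which moved the median of all probes by -0.49, the number lower by p and fold was 101 and the number higher 0, and Zbtb2 and Zfp535 had log2 fold changes of -0.36 and -0.26.

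Zfp629, a many-fingered C2H2 gene, had the smallest p-value of the family. Its log2 signals were 7.36, 7.41, 7.52 and 7.65 on the mock arrays and 6.92, 6.99, 6.98 and 6.81 on the Bcl11b arrays. Every Bcl11b value lay below every mock value, and the mean fell from 7.48 ± 0.13 to 6.93 ± 0.086 (SD, n = 4 arrays in each group). This was a 1.47-fold decrease (log2 fold change -0.56, SE 0.075, adjusted p = 0.055). It did not pass the adjusted threshold without mock replicate 3 (adjusted p = 0.146) or Bcl11b replicate 1 (0.182), 2 (0.148) or 3 (0.142), nor without normalization, with median division or under limma-trend.

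Zfp647 was dim, detected on 4 mock arrays and 2 Bcl11b arrays, so it met the detection limit through the mock group, where its signal was higher. Its log2 signals were 7.57, 7.02, 7.16 and 7.32 on the mock arrays and 6.32, 6.52, 6.45 and 6.63 on the Bcl11b arrays. The groups did not overlap, with the lowest mock value above the highest Bcl11b value (log2 fold change -0.79, SE 0.13, adjusted p = 0.0879). With an array left out it passed the adjusted threshold in only 1 of 8 fits, that without mock replicate 2, and the adjusted p was 0.115 to 0.266 in the others. It did not pass without normalization, with median division, with the offset or under limma-trend either. Zfp41 had 2 probes that were both lower, and the groups of both were apart. On ILMN_2461345 the log2 signals were 9.30, 9.31, 9.59 and 9.53 on the mock arrays and 8.69, 8.66, 9.06 and 8.68 on the Bcl11b arrays. The Bcl11b values lay close together except for replicate 3, the highest of them (log2 fold change -0.67, SE 0.12, adjusted p = 0.101). The second probe, ILMN_3137980, measured 8.89, 8.85, 9.15 and 8.91 on the mock arrays and 8.59, 8.44, 8.64 and 8.34 on the Bcl11b arrays. It differed by less than the first but with a similar error (log2 fold change -0.45, SE 0.093, adjusted p = 0.159).

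Further Zfp genes were lower without passing the adjusted threshold. Zfp94 measured 8.45, 7.74, 8.08 and 8.32 on the mock arrays and 7.41, 7.51, 7.42 and 7.69 on the Bcl11b arrays, and all Bcl11b values were below the lowest mock value (log2 fold change -0.64, SE 0.16, adjusted p = 0.23). Zfp30 measured 9.44, 8.84, 9.40 and 9.29 on the mock arrays and 8.67, 8.72, 8.45 and 8.76 on the Bcl11b arrays. Mock replicate 2 stood low in its group but above every Bcl11b value (log2 fold change -0.59, SE 0.15, adjusted p = 0.229). Zfp410, whose human counterpart controls the chromatin remodeler gene CHD4, measured 8.25, 7.82, 8.14 and 8.29 on the mock arrays and 7.35, 7.69, 7.47 and 7.79 on the Bcl11b arrays. The groups were apart by a narrow gap (log2 fold change -0.55, SE 0.14, adjusted p = 0.234). Zfp101 was also lower without overlap, at 8.93, 8.86, 8.78 and 9.28 on the mock arrays and 8.33, 8.51, 8.16 and 8.74 on the Bcl11b arrays (log2 fold change -0.53, SE 0.16, adjusted p = 0.318). All 4 kept p under 0.05 with any single array left out.

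Zfp521, a factor known from early neural and blood progenitors, was detected on 4 mock and 3 Bcl11b arrays. It measured 7.55, 7.29, 7.47 and 7.49 on the mock arrays and 6.92, 6.91, 6.23 and 7.12 on the Bcl11b arrays. The mock values were close together and the Bcl11b values were spread, with replicate 3 lowest (log2 fold change -0.66, SE 0.20, adjusted p = 0.309). Zfp608 measured 9.57, 8.58, 8.69 and 8.79 on the mock arrays and 8.42, 8.48, 8.25 and 8.06 on the Bcl11b arrays. The groups did not overlap, but mock replicate 1 stood above the others, and the unadjusted p rose above 0.05 without mock replicate 4 or without any one of the 4 Bcl11b arrays (log2 fold change -0.60, SE 0.24, adjusted p = 0.448). Zfp692 had the largest decrease among members detected on all 8 arrays, at 8.73, 8.02, 8.94 and 8.89 on the mock arrays and 8.24, 8.09, 7.33 and 7.48 on the Bcl11b arrays. Its groups overlapped, since mock replicate 2 was lower than Bcl11b replicates 1 and 2 (log2 fold change -0.86, SE 0.30, adjusted p = 0.379), and the call was lost without mock replicate 1, 3 or 4 or Bcl11b replicate 3 or 4.

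Further decreases by p and fold among members detected on all 8 arrays included those of Zfp261, now Zmym3 (log2 fold change -0.44), Zfp87 (-0.43) and Zfp184 (-0.38). Zfp261 had groups that did not overlap, and its call was lost without mock replicate 3 or 4 or Bcl11b replicate 3 or 4. The calls of Zfp87 and Zfp184 held in only 2 of the 8 fits with an array left out. Smaller differences at an unadjusted p under 0.05 had little spread. Zfp90 (log2 fold change -0.28, adjusted p = 0.193) and Zfp46 (-0.19, adjusted p = 0.368) had groups that did not overlap but a log2 change under 0.32. Zfp281, known from pluripotent cells, had a log2 fold change of -0.25 (adjusted p = 0.37) and Zfp512 of -0.20 (adjusted p = 0.414). These 4 genes were chosen after their values were seen.

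Among the 13 symbols classed as BTB by current name, 13 of 16 probes were below 0, with a median log2 fold change of -0.22. For all probes with the same detection limit, 51.6% were below 0 and the median was -0.014. Domains were not checked, so a BTB gene still named Zfp would fall outside this class. By p and fold, 4 probes were lower (Zfp297b, Zfp238, Zbtb7 and Zbtb1) and 1 was higher (Zbtb2), beside 10.3% and 4.13% of all probes with the same detection limit. Zfp297b (Zbtb43), whose promoter is shown above, measured 8.43, 8.14, 8.25 and 8.23 on the mock arrays and 7.86, 7.90, 7.82 and 7.92 on the Bcl11b arrays. The Bcl11b values were tightly grouped below all mock values, and the mean fell from 8.26 ± 0.12 to 7.87 ± 0.045 (SD, n = 4 arrays in each group) (log2 fold change -0.39, SE 0.064, adjusted p = 0.0826). With an array left out it passed the adjusted threshold only without mock replicate 1 or 2, and the adjusted p was 0.125 to 0.247 in the other 6 fits. It did not pass without normalization, with median division, with the offset, with either detection filter or under limma-trend. Zfp238 (Zbtb18), a repressor needed for cortical neuron development, had 3 probes, and ILMN_2459155 measured 9.40, 9.47, 9.53 and 9.66 on the mock arrays and 9.06, 9.21, 8.81 and 8.95 on the Bcl11b arrays. It was lower without overlap (log2 fold change -0.51, SE 0.099, adjusted p = 0.139). The other probes of this gene had log2 fold changes of -0.36 (adjusted p = 0.802) and -0.14 (adjusted p = 1), with groups that overlapped. Zbtb7 (Zbtb7a), a repressor of fetal globin genes in red cells, measured 8.99, 8.58, 9.43 and 9.37 on the mock arrays and 8.55, 8.64, 8.39 and 8.32 on the Bcl11b arrays. Mock replicate 2 fell among the Bcl11b values (log2 fold change -0.62, SE 0.20, adjusted p = 0.354), and the call was lost without mock replicate 4 or Bcl11b replicate 3 or 4. Zbtb1, needed in lymphoid development, gave 7.31, 7.44, 6.82 and 7.51 on the mock arrays and 6.72, 7.12, 6.60 and 6.77 on the Bcl11b arrays. Its groups overlapped (log2 fold change -0.47, SE 0.19, adjusted p = 0.456), and p stayed under 0.05 in only 2 of the 8 fits with an array left out, those without mock replicate 3 or Bcl11b replicate 2.

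Zbtb2 went the other way and measured 8.06, 8.16, 8.33 and 8.09 on the mock arrays and 8.58, 8.73, 8.44 and 8.34 on the Bcl11b arrays. All 4 Bcl11b values exceeded the highest mock value, replicate 4 by a narrow gap (log2 fold change 0.36, SE 0.10, adjusted p = 0.277). Zbtb17 (Miz-1), a partner of Myc, measured 10.62, 9.95, 11.09 and 10.78 on the mock arrays and 10.24, 10.36, 9.83 and 10.16 on the Bcl11b arrays. Mock replicate 2 was lower than 3 of the Bcl11b values, and the difference did not pass the test (log2 fold change -0.46, SE 0.26, adjusted p = 0.663), although without mock replicate 2 it passed p and fold at a log2 fold change of -0.69 (adjusted p = 0.173). The methylated DNA reader Zbtb33 (Kaiso) had a log2 fold change of -0.14 (95% interval -0.41 to 0.13) and Zbtb24, mutated in the immune deficiency ICF syndrome, 0.06 (-0.28 to 0.41). The remaining BTB probes, for Zbtb3, Zbtb5, Zfp161 (Zbtb14), Zfp295 (Zbtb21) and Zfp297 (Zbtb22), did not pass the test, although Zbtb3 passed p and fold without mock replicate 2 (-0.40).

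**Figure D2:**
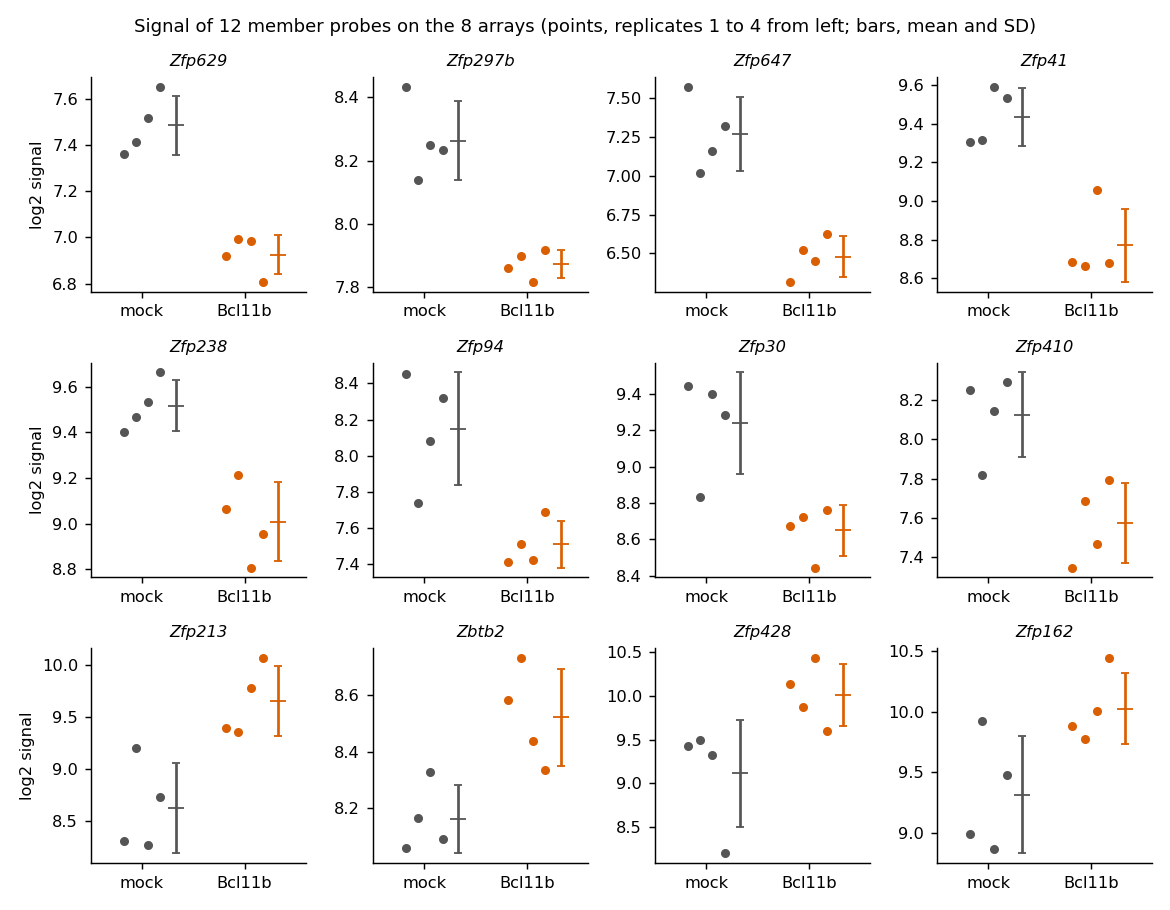
Log2 signal (y axis) of 12 member probes on each mock and Bcl11b array; points are arrays, with replicates 1 to 4 from left to right, and bars give the mean and SD of 4 arrays. The 12 were picked from the calls by p and fold, and other calls with overlapping groups, such as Zfp692 and Zbtb7, are not shown. The first 8 genes lay lower and the last 4 higher in Bcl11b-transfected cells, and Zfp162 alone among these 12 had groups that overlapped.

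The Zfp genes proper had a median log2 fold change of -0.068, and the 18 probes under other names had a median of 0.076. Of those 18, 7 were below 0. The class held 4 probes of Zfp289 and 2 each of Zfp162, Zfp313 and Zfp535, so a few genes weigh on its median. Genes now named Zscan or Zkscan were in that class too. Under the 17 alternative fits, the difference of the class median from that of all probes with the same detection limit ranged from -0.28 to -0.15 for the BTB class and from -0.11 to -0.014 for the Zfp class. For the probes under other names it ranged from 0.056 to 0.14. Several of these fits, such as limma-trend and the filter on probes detected on at least 4 arrays, could not move these differences. No normalization and median division gave the same differences by construction. The class sizes differ and no test between classes was made.

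**Figure D3:**
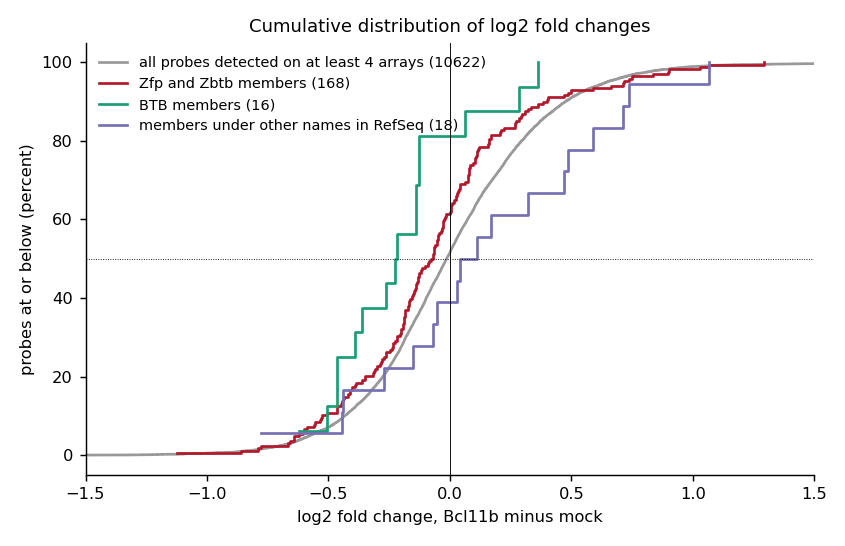
Cumulative percent of probes (y axis) at or below each log2 fold change (x axis, Bcl11b minus mock, cropped at 1.5 either way) for all probes detected on at least 4 arrays, the members and 2 of the member classes. The member curve crosses 50% at -0.074, the BTB curve at -0.22 and the curve of members under other names above 0.

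Few members were higher. Zfp213 had the largest increase among members detected on all 8 arrays and measured 8.30, 9.20, 8.27 and 8.73 on the mock arrays and 9.39, 9.36, 9.78 and 10.07 on the Bcl11b arrays. Every Bcl11b value lay above the highest mock value, which was that of replicate 2, and the increase was 2.04-fold (log2 fold change 1.03, SE 0.27, adjusted p = 0.238). Without mock replicate 2 it passed the adjusted threshold (log2 fold change 1.23, adjusted p = 0.0965). Zfp428 measured 9.43, 9.50, 9.32 and 8.20 on the mock arrays and 10.14, 9.88, 10.43 and 9.59 on the Bcl11b arrays. Bcl11b replicate 4 lay just above the highest mock value and mock replicate 4 far below the other mock values (log2 fold change 0.90, SE 0.34, adjusted p = 0.437), and p rose above 0.05 without mock replicate 3 or Bcl11b replicate 1, 2 or 3. Zfp162 (Sf1) measured 8.99, 9.92, 8.87 and 9.48 on the mock arrays and 9.88, 9.77, 10.01 and 10.44 on the Bcl11b arrays on ILMN_2449335. Mock replicate 2 reached into the Bcl11b values (log2 fold change 0.71, SE 0.27, adjusted p = 0.441), and the call held only without mock replicate 2 or Bcl11b replicate 2. Its second probe, detected on 3 mock and 4 Bcl11b arrays, differed by 1.07 on the log2 scale (adjusted p = 0.563), and passed p and fold without mock replicate 2 (1.40). Zfp535 (Zkscan6) rose on ILMN_2520748, at 7.05, 6.69, 6.53 and 6.89 on the mock arrays and 6.98, 7.27, 7.22 and 7.62 on the Bcl11b arrays (log2 fold change 0.48, SE 0.17, adjusted p = 0.379), with 1 pair of values out of order between the groups. Its second probe had a log2 fold change of -0.07, and the call of the first was lost without mock replicate 2 or 3 or Bcl11b replicate 2 or 4.

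The CCCH genes that act on RNA did not pass the test. Zfp36 measured 9.49, 9.54, 9.20 and 9.25 on the mock arrays and 9.31, 9.41, 9.73 and 9.70 on the Bcl11b arrays. The groups overlapped (log2 fold change 0.17, SE 0.13, adjusted p = 0.802), and the 95% interval of -0.15 to 0.48 on the log2 scale bounds the change. Zfp36l1 had 3 probes, and ILMN_2780424 measured 12.88, 13.41, 13.13 and 13.35 on the mock arrays and 13.16, 13.30, 13.16 and 13.30 on the Bcl11b arrays. It differed by 0.04 with an interval of -0.26 to 0.33, and ILMN_1247853 by -0.19, with an interval of -0.59 to 0.22. Its probe ILMN_2427108, detected on 2 mock arrays and 4 Bcl11b arrays, ranged from 4.84 to 7.56 in mock and had a log2 fold change of 0.90 (adjusted p = 0.771).

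In all, 30 genes had 2 or more member probes (68 probes). Agreement between probes of a gene ranged from a gap of 0.0078 in log2 fold change for Zfp68 to 1.09 for Zfp36l1. The 5 genes with the widest gaps were Zfp36l1, Zfp523, Zfp553, Zfp289 and Zfp326. Zfp553 measured 8.08, 8.04, 7.61 and 8.55 on the mock arrays and 7.50, 7.45, 7.59 and 7.33 on the Bcl11b arrays on ILMN_2854036, without overlap (log2 fold change -0.60, SE 0.19, adjusted p = 0.345), a call lost without Bcl11b replicate 4. Its other probe, ILMN_2456495, measured 8.31, 8.79, 7.65 and 8.56 on the mock arrays and 8.40, 8.44, 8.42 and 8.69 on the Bcl11b arrays. The values of that probe overlapped and leaned the other way (log2 fold change 0.16, SE 0.25, adjusted p = 0.973). Zfp326, a factor of the DBIRD complex that links transcription with splicing, had log2 fold changes of 0.22, 0.66 and 0.84 on its 3 probes, none with p under 0.05. Without Bcl11b replicate 4 these were 0.38, 1.01 and 1.09, and all 3 passed p and fold. The 4 probes of Zfp289 (Arfgap2) gave log2 fold changes of 0.32, -0.27, 0.17 and 0.47, and those of Zfp523 gave 0.72 (dim) and -0.13. Both probes of Zfp313 (Rnf114) were higher, by 0.59 and 0.74, without passing the test. The call of Zfp553, Zfp535, Zfp238, Zfp162 and Zfp87 was thus made on 1 of their probes, whereas both probes of Zfp41 were called.

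**Figure D4:**
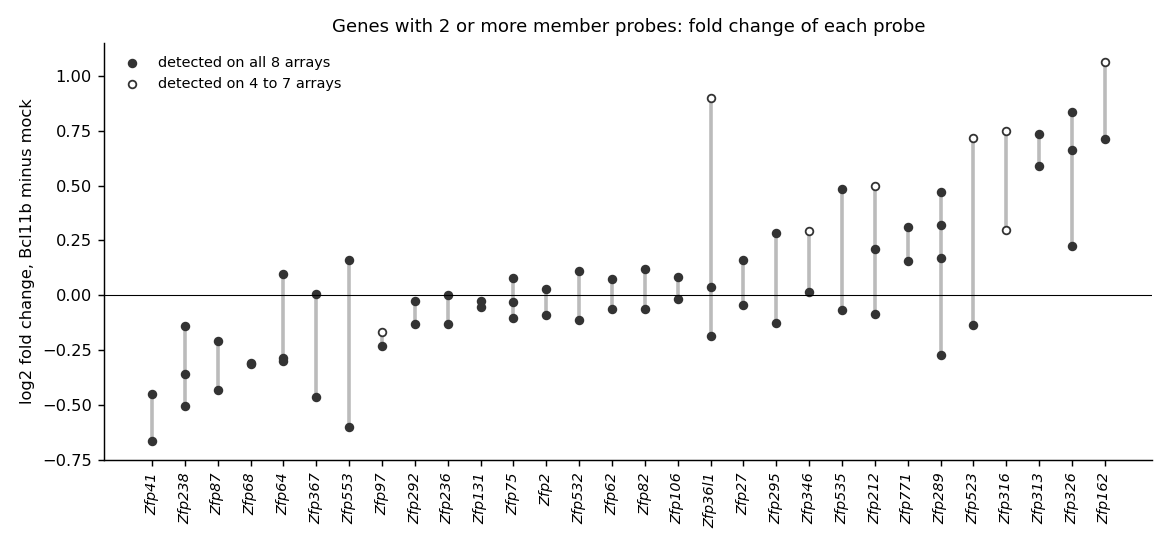
Log2 fold change (y axis, Bcl11b minus mock) of each member probe of the 30 genes with several (x axis, ordered by their median); open points mark probes detected on 4 to 7 arrays and grey bars join the probes of a gene. Both Zfp41 probes lie well below 0, whereas the probes of Zfp553, Zfp289 and Zfp523 fall on either side of it.

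The narrowest intervals belonged to Zfp382, Zfp639 and Zfp297b. Zfp382, a KRAB zinc finger gene, measured 7.63, 7.49, 7.42 and 7.60 on the mock arrays and 7.55, 7.56, 7.62 and 7.50 on the Bcl11b arrays. Its interval of -0.11 to 0.15 lay around a log2 fold change of 0.02. Zfp639 measured 11.66, 11.70, 11.51 and 11.80 on the mock arrays and 11.64, 11.67, 11.59 and 11.65 on the Bcl11b arrays, with a log2 fold change of -0.03 (-0.18 to 0.12). For Zfp382 and Zfp639 a log2 change of 0.32 lay outside the interval.

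The 17 members not detected on all 8 arrays were dimmer, and 6 of them were detected more often in mock, 8 more often in Bcl11b and 3 equally often. Zfp606 was detected on 3 mock arrays and 1 Bcl11b array, and its values were dim, at 6.32, 6.97, 6.37 and 7.09 on the mock arrays and 5.12, 5.62, 5.08 and 6.44 on the Bcl11b arrays. Bcl11b replicate 4 overlapped the mock values (log2 fold change -1.12, SE 0.36, adjusted p = 0.347), and p rose above 0.05 without mock replicate 2 or 4 or Bcl11b replicate 1 or 3. Zfp98 (Mzf1), detected on 3 and 1 arrays, had a log2 fold change of -0.78 (adjusted p = 0.349), a call lost without Bcl11b replicate 2 or 3. Zfp398, detected on 4 and 1, had -0.54 (adjusted p = 0.213). Zfp606, Zfp98 and Zfp398, like Zfp647 above, met the detection limit mainly through the mock group, where their signal was higher. All are counted among the members lower by p and fold. Zfp57, which protects DNA methylation at imprinted genes, was detected on 1 mock and 4 Bcl11b arrays, so it met the detection limit through the Bcl11b group. It measured 6.42, 7.39, 5.34 and 4.75 on the mock arrays and 7.15, 6.96, 7.52 and 7.45 on the Bcl11b arrays. The mock values were spread over a wide range and reached into the Bcl11b values (log2 fold change 1.29, SE 0.58, adjusted p = 0.523). The difference did not pass the test, although it passed p and fold without mock replicate 2 (1.77). Zfp316 (ILMN_1218057, 0.30, interval -1.06 to 1.66) and Zfp212 (ILMN_1218015, 0.50, interval -0.09 to 1.09) were at the detection limit, and Zfp212 passed p and fold without mock replicate 2 (0.63) or Bcl11b replicate 2 (0.64). The largest SDs within groups belonged to dim probes of Zfp36l1, Zfp57, Zfp523, Zfp316 and Zfp162.

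Single arrays were often the extreme of their group. Bcl11b replicate 4 was the highest of its group for 93 of 168 members (55.4%, against 49.4% of all probes with the same detection limit), and Bcl11b replicate 3 the lowest for 77 (45.8% against 28.04%). In the mock group, replicate 4 was highest for 59 (35.1% against 25.8%) and lowest for 14 (8.33% against 19.6%). The mock SD exceeded the Bcl11b SD for 110 members (65.5%, against 63.1%), with median SDs of 0.27 and 0.22. Whether these array differences bear on the group difference was not tested.

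**Figure D5:**
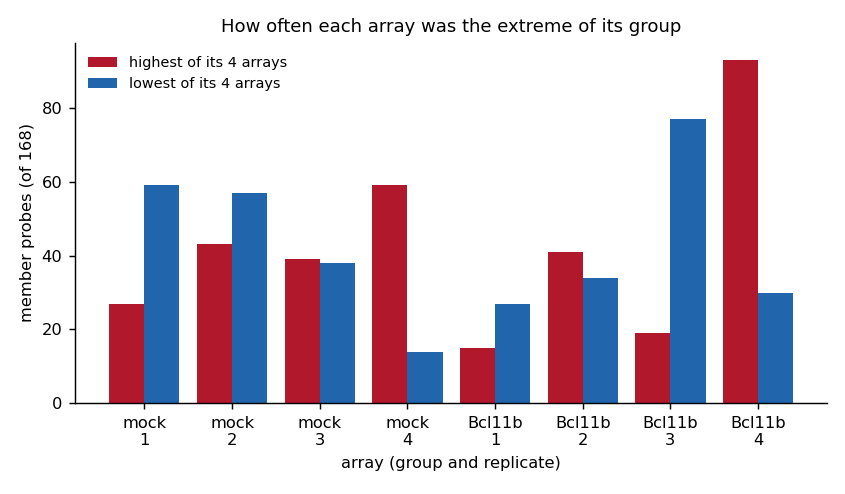
Number of the 168 member probes (y axis) for which each array (x axis, group and replicate) had the highest (red) or lowest (blue) log2 signal of its 4 arrays. Bcl11b replicate 4 was highest for 93 members (55.4%) and Bcl11b replicate 3 lowest for 77 (45.8%). Among all probes with the same detection limit these shares were 49.4% and 28.04%, so equal bars are no baseline.

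In the RefSeq gene order, 50 of the 130 member genes (38.5%) stood next to a gene named Zfp, Zbtb, Zscan or Zkscan, against 3.61% of 21898 protein-coding genes. With the probe of highest mean signal for each gene, the members in such clusters had a median log2 fold change of -0.16 and the other 80 a median of -0.066. There were 12 pairs of members that neighbour each other, of which 8 were both below 0 and 1 both above. Taken singly, 61.9% of the member probes were below 0, and Zfp87, Zfp282 and Zfp35 each stood in more than 1 pair. Whether the pairs differed from that share was not tested. Zfp35 had the opposite sign to Zfp397 and Zfp191, and Zfp637 to Zfp239. The pair above 0 was Zfp553 (0.16 on ILMN_2456495, while its other probe was lower) and Zfp771 (0.31). Zfp94 lay beside Zfp61 (-0.26, adjusted p = 0.825), Zfp398 beside Zfp282 (-0.22, adjusted p = 0.618), Zfp606 beside Zfp551 (-0.19, adjusted p = 0.379), and Zfp87 (-0.43, adjusted p = 0.449) beside Zfp817 (-0.19, adjusted p = 0.949).

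The partners through which these factors act were read from the same fit, and their counts by p and fold stand beside the 10.3% lower and 4.13% higher of all probes with the same detection limit. Of 11 KRAB corepressor genes, 9 were detected, 1 was lower by p and fold (Dnmt3b, -0.33, adjusted p = 0.407) and 1 higher (Cbx5, heterochromatin protein HP1 alpha, 0.56, adjusted p = 0.375). Trim28 (-0.19, adjusted p = 0.849) and Setdb1 (0.23, adjusted p = 0.849) did not pass. Of 8 BTB partner genes, 7 were on the array and all were detected (8 probes), and 1, the corepressor subunit Tbl1xr1, was lower (-0.61, adjusted p = 0.38) on a probe detected on 5 arrays. Ncor1 had 0.43 (adjusted p = 0.678) and the 2 probes of Bcor 0.43 and 0.34, none past the test. Of 12 genes that decay messages bound by Zfp36, 9 were on the array and 7 were detected (15 probes). Cnot6l, a deadenylase, was lower (-0.60, SE 0.095, adjusted p = 0.0758), and a Cnot3 probe detected on 4 arrays was higher (1.51, adjusted p = 0.475) with its other probe at 0.64 (adjusted p = 0.581).

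C2H2 genes outside the Zfp and Zbtb names were read in the same way. Of 50 on the array, 18 were detected (20 probes), with a median log2 fold change of -0.092. By p and fold, 2 of the 20 probes were lower, beside 10.3% of all probes with the same detection limit, and 0 were higher, beside 4.13%. Bcl6b was lower without overlap (-0.87, SE 0.22, adjusted p = 0.218). The dim Sall1 probe was lower (-0.97, adjusted p = 0.345), while the Sall1 probe detected on all arrays was at 0.14 (adjusted p = 0.415), so the gene has no settled direction. Zscan21 was at 0.28 (adjusted p = 0.354), just under the fold required.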

How the data were processed

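RNA of 4 Bcl11b and 4 mock samples, grouped by sample title, was measured on Illumina arrays. The authors deposited 1 intensity per probe, background-subtracted in GenomeStudio (version not given in the labels) and not normalized between arrays, and a detection p-value per probe, which was used at 0.01. No probe had an identical deposited signal on any 2 arrays (0 cases). After quantile normalization, intensities under 1 were raised to 1, and log2 values were fitted with limma 3.58.1 (R 4.3.3, lmFit and eBayes) over all 25697 probes, with Benjamini-Hochberg adjustment over all of them. The script was tested on simulated data. Thresholds were an adjusted p of 0.10, and an unadjusted p of 0.05 with a log2 change of at least 0.32. Named members were those past the adjusted threshold, up to 10 per direction by fold change among calls detected on all 8 arrays, zinc finger genes the study names (Zbtb4 and Zfp36l2 were no members), the Zfp36 genes, and the extremes of probe gap, interval, detection limit and SD. The remaining p and fold calls and a few others are named for completeness. Members, lists and motifs were chosen with earlier results of these data known. Classes rest on current gene names in RefSeq (GRCm38.p6), since protein sequences were not used here. Overlap of promoter windows on opposite strands was checked (1599 pairs, 0 failing). Alternatives were no normalization, median division, neqc, an offset of 16, both detection filters, the replicate block, limma-trend, arrayWeights, members detected on all 8 arrays, and each array left out.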

Additional observations from a re-analysis of the deposited data

Results flagged for a closer look

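In 7 of the 82 groups of 4 arrays formed by 41 named probes, 1 array lay further from the others than Dixon's 95% limit. Chance gives about 1 in 20 for groups not chosen by their values. Some of these probes were named for a large SD or a wide probe gap, so that rate is no base for them. On Bcl11b replicate 4, the log2 signal stood above its group for Zfp289 on ILMN_1241481 (10.03) and ILMN_2853409 (11.19), for Zfp523 on ILMN_1236258 (7.16) and for Zfp553 on ILMN_2456495 (8.69). Bcl11b replicate 3 stood above its group for Zfp41 on ILMN_2461345 (9.06). Mock replicate 4 stood below its group for Zfp428 (8.20), and mock replicate 3 for Zfp316 on ILMN_1218057 (4.18).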

How the results depend on the processing

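Without normalization between arrays 0 members were lower at the adjusted threshold, 101 lower and 0 higher by p and fold, the members' median was -0.79, and the partner lists and other C2H2 genes had 15 and 16 calls (5 and 2 in the fit as reported). Its construction leaves the brighter mock signals in place. The number lower at the adjusted threshold was 0 with median division and with limma-trend, 1 with the offset, 6 with neqc and 7 with arrayWeights. The number higher by p and fold was 9 with median division, neqc or the filter on 4 arrays, and 11 with arrayWeights, where the partner lists had 10 calls. With only probes detected on all 8 arrays, 1 other C2H2 gene was called. The cause was not tested elsewhere. Calls over all probes were not counted for these alternatives, so the member counts have no background share beside them. With an array left out, the adjusted counts ranged from 0 to 8 (lower) and 0 to 1 (higher), those by p and fold from 13 to 32 and from 2 to 10, the median from -0.14 to -0.030, the partner lists from 1 to 6 calls and the other C2H2 genes from 2 to 5.

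Not every pair of same-numbered arrays deviated together over all probes detected on all 8 arrays (r = 0.68, -0.63, 0.18 and 0.70), and the labels tie the numbers to nothing shared, so they were not taken as pairs. With the replicate block, 0 members were lower at the adjusted threshold, 17 lower and 3 higher by p and fold, and 1 other C2H2 gene was called.

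Of 688 single-probe values under alternatives, 21 changed sign. Without normalization these were Zfp535 (-0.26), Zbtb2 (-0.36), Zfp36 (-0.53), Zfp36l1 ILMN_2780424 (-0.35), Zfp523 ILMN_1236258 (-0.059), Zfp553 ILMN_2456495 (-0.56), Zfp289 (-0.39, -0.51 and -0.23), Zfp326 (-0.46 and -0.039), Zfp382 (-0.72), Zfp212 (-0.23) and Zfp316 (-0.44). Zfp639 was at 0.13 with median division and Zfp36l1 ILMN_2780424 at -0.0096 with arrayWeights. With an array left out, that Zfp36l1 probe ranged from -0.065 to 0.11, Zfp553 ILMN_2456495 from -0.065 to 0.32, Zfp382 from -0.014 to 0.053, Zfp316 from -0.20 to 0.51 and Zfp639 from -0.084 to 0.014. The other values kept their direction, 71 of them no longer past the threshold and 30 newly past it. Both detection filters, the replicate block and limma-trend leave a fold change as it was, so their values could not change sign.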
